A study of Mus musculus with 12 samples.

Results

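The 7 genes Hes1, Neurog1, Neurog2, Mnx1, Dcx, Elavl4 and Mapt were followed in the 12 peak lists of a chromatin immunoprecipitation and sequencing (ChIP-seq) series in mouse cells. Their peaks are those whose deposited nearest gene is one of the 7, at any distance from the transcription start site (TSS). There were 42 such peaks of 76731 in all, 13 of 10124 RXR peaks and 29 of 66607 H3K27ac peaks, and the 7 genes are among 14490 named as a nearest gene. Wild-type E14 embryonic stem (ES) cells, kept without feeders in serum medium with LIF, were mapped as a control, for which the protocol names dimethylsulfoxide as vehicle. They were also mapped after 24 h with 1 µM GW3965, a liver X receptor agonist, LG268, an RXR agonist, or RA, all-trans retinoic acid. In these 4 conditions the retinoid X receptor (RXR) and acetylated lysine 27 of histone H3 (H3K27ac) were mapped, with 1 library each. RXR alone was mapped in differentiating cultures at day 8 and day 16, with 2 replicates each. These came from the same cells through embryoid bodies formed without LIF, with RA added at 5 µM, and plating in N2 medium. The protocol describes no selection of neurons. The labels do not say whether the replicates were separate cultures.

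RXR binds DNA as the partner of other nuclear receptors. With the retinoic acid receptor it occupies retinoic acid response elements, and RA drives the neural differentiation of ES cells. Hes1 is a basic helix-loop-helix (bHLH) repressor that carries Notch signals and holds neural progenitors undifferentiated by repressing proneural genes. Neurog1 and Neurog2 are proneural bHLH activators that commit progenitors to the neuronal fate, and Mnx1 (HB9) is a homeobox factor of motor neurons. Dcx, Elavl4 (HuD) and Mapt (tau) are genes of the neurons themselves: a microtubule-binding protein of migrating neurons, an RNA-binding protein and an axonal microtubule-binding protein. H3K27ac marks active promoters and enhancers.

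The lists differ in length, and their read depth is unknown. The RXR lists hold 1089 peaks in the control, 940 with GW3965, 2089 with LG268 and 1970 with RA. The day 8 replicates hold 1154 and 2044, and the day 16 replicates 429 and 409, of which 50.6% and 49.9% are annotated to repeats such as satellites and rRNA genes, or to mitochondrial DNA. The H3K27ac lists hold 21418, 17759, 12472 and 14958 peaks for control, GW3965, LG268 and RA. No test compares conditions, since 8 of the 10 groups have 1 library and 2 libraries against 2 cannot pass a permutation test. Each score is the authors' own and is read within its list as a rank, given here as a percentage from the top. A peak missing from a list is a peak not called in that library, which at unknown depth does not show absence of binding. Promoter H3K27ac was used to check the ES label. Of 10 ES cell marker genes, 5 had an H3K27ac peak within 1 kb of the TSS in the control, 6 with GW3965, 3 with LG268 and 1, Utf1, with RA. The same counts were 5, 2, 2 and 3 of 5 neuronal markers, 4, 3, 0 and 2 of 5 neural progenitor markers, and 2, 1, 1 and 1 of 5 glial markers. They were 0, 0, 0 and 1 of 5 endoderm markers, 1, 0, 0 and 0 of 5 mesoderm markers and 2, 2, 0 and 0 of 5 fibroblast markers. Over all named genes such a peak was called at 73%, 66.5%, 56.7% and 62.7% in the same lists. These shares count only genes named as a nearest gene. Of the marker sets, 9 ES cell, 5 neuronal, 5 neural progenitor, 4 glial, 3 endoderm, 2 mesoderm and 2 fibroblast markers are so named. Of the 9 named ES markers, 5, 3 and 1 in the control, LG268 and RA lists lie below these shares. The 6 with GW3965 lie close to the share of that list. The check did not single out ES cells. The day 8 and day 16 cultures have no H3K27ac list here against which their label could be checked.

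Promoter sequences were available here for 5 of the genes and not for Hes1 and Mapt. Those 2 also had H3K27ac within 1 kb of the TSS, Hes1 in the control and Mapt in every list. The promoters of the 3 proneural and motor neuron factors are shown beside that of the long Elavl4 transcript. The Elavl4 window is the 1 available window that overlapped an H3K27ac peak. Each window is the 250 bases before the start in RefSeq, build GRCm38.p6, which is the mm10 assembly named in the file headers. Capitals mark a nuclear receptor half-site on either strand. The half-site is AGGTCA, or the same letters with G in the first place, T in the third, or both.
Elavl4 promoter (chr4:110351912-110352161, minus strand): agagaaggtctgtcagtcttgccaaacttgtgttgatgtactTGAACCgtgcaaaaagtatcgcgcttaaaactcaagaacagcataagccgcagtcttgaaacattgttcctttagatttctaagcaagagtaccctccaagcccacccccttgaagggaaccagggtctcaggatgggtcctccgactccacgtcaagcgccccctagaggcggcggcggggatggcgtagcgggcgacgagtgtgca
Mnx1 promoter (chr5:29478471-29478720, minus strand): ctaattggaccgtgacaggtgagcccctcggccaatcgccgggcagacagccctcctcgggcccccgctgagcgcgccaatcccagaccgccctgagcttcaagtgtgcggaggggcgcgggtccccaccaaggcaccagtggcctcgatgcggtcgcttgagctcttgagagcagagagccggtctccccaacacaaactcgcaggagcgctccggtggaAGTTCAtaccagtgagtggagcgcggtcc
Neurog1 promoter (chr13:56252181-56252430, minus strand): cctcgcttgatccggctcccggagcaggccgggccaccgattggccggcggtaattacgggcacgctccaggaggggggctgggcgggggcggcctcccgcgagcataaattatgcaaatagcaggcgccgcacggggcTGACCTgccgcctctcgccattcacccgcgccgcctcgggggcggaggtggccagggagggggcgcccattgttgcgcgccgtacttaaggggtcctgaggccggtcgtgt
Neurog2 promoter (chr3:127632886-127633135, plus strand): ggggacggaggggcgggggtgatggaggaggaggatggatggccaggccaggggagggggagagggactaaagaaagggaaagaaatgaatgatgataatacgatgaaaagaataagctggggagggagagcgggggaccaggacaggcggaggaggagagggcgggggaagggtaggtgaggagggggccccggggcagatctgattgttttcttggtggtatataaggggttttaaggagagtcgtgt
In this Elavl4 window the 101 bases next to the start lay inside an H3K27ac peak of the control, and the nearest H3K27ac peak with GW3965, LG268 and RA ended 114, 136 and 208 bp away. The other 3 Elavl4 windows, at shorter transcripts, overlapped no H3K27ac peak, with the nearest of the control 845 to 1538 bp away, and hold 0, 2 and 2 half-sites. The Mnx1, Neurog1 and Neurog2 promoters overlapped no H3K27ac peak of any list. Their nearest H3K27ac peaks over the 4 lists lay 10318, 30377 and 79515 bp away. The printed Elavl4, Mnx1 and Neurog1 windows each hold 1 half-site, at -208, -29 and -111 from the start, and Neurog2 holds none. Such a half-site is in 38.6% of 32851 promoter windows of this length. Windows were available for the 5 genes Neurog1, Neurog2, Mnx1, Dcx and Elavl4. None of these windows held a direct repeat of these half-sites with a spacer of 0 to 5 bases, and 0.706% of all windows hold one. CACNAG, the N-box bound by Hes proteins, was in the printed Elavl4 and Mnx1 windows, and in 36.7% of all windows. TGGGAA, a core of the RBPJ site, was in none of the 4 and in 21.6% of all. Both strands were searched, and the half-sites, their repeats and the N-box can share bases. The printed windows differ in base composition, with 71.2% G+C and 29 CpG in Neurog1, 66.4% and 21 in Mnx1, 58.0% and 8 in Neurog2 and 53.6% and 14 in Elavl4. The median over all windows is 52.4% and 6.

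Each of the 7 genes had 1 RXR site (25.1% of all named genes had an RXR peak in any list), none of them in the control or GW3965 lists and none within 10 kb of the TSS. Peaks overlapping by at least 1 bp across lists were joined into a site. The 7 sites lie 10.5 to 72.7 kb downstream of the TSS. Of all 5014 RXR sites, 63.1% have every peak over 10 kb from the TSS. In ES cells 6 of the 7 genes had an RXR peak in some list, and in the differentiating cultures 3 did, all at day 8. Over all 14490 named genes 20.7% had a peak in an ES list, 12% in a day list and 11.5% in a day 8 list. Without the lowest-scoring 25% of each list the ES count was 3, and with lists of equal length it was 1 in ES cells and 0 in the day lists. By list, 0 of the 7 genes had a peak in the control (6.89% of all named genes) and 0 with GW3965 (5.99%), 3 with LG268 (12.4%) and 5 with RA (11.9%). At day 8 there were 2 and 3 in the replicates (6.31% and 10.8%), and at day 16 there were 0 and 0 (2.33% and 2.19%). An ES list held 6 of the 7 sites (73.8% of all sites). In 2 or more lists 3 of the 7 sites were found (43.3% of all sites), and in both an ES and a day list 2 were, those of Hes1 and Mnx1 (20.4%). At day 8, 2 of 3 sites were in both replicates (44.5% of 2196 day 8 sites), and 0 of 3 recurred at day 16 (16.3%). The genes were proposed with earlier results of these data known, so a share above that of all genes carries no weight of its own. Sites with LG268 or RA and no control peak make up 69.4% of all sites found with LG268 or RA, and 6 of 6 here.

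**Figure D1:**
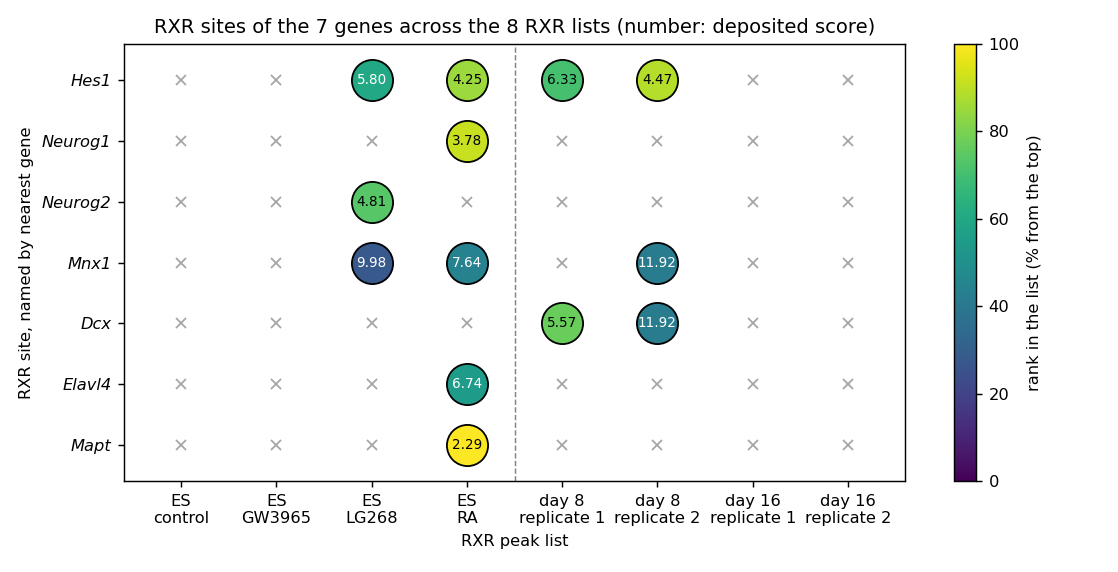
Each row is the RXR site of 1 gene and each column an RXR peak list, with ES lists left of the dashed line. Filled circles show a called peak, with the deposited score printed and the rank as % from the top in colour (0 is the highest peak), and crosses show lists without a peak. The Hes1 site has a peak in 4 lists, the Mnx1 site in 3, the Dcx site in 2 and the other sites in 1 each.

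Hes1, the Notch-responsive repressor, carried the site found in most lists. It lies at chr16:30129448-30129742 (295 bp, annotated intergenic), 64193 to 64254 bp downstream of the TSS, and no RefSeq gene overlaps it. The score was 5.80 with LG268 and 4.25 with RA in ES cells, and 6.33 and 4.47 in the day 8 replicates. Neither the control, the GW3965 nor a day 16 list had a peak there, and the nearest control RXR peak was 700 kb away, near Fam43a. The peak was low in each list that held it, at rank 1253 of 2089 with LG268, 1676 of 1970 with RA, and 815 of 1154 and 1818 of 2044 at day 8. The centres of the 4 peaks fell within 61 bp of each other. The same 4 lists and no others held 62 of the 5014 RXR sites (1.24%), and by its best rank in any list the Hes1 site stood at position 62 of them. The highest of these sites by rank lay nearest to Skap1, Uaca, 2700086A05Rik, Qk and Kif13b, a set named after the values were seen. No H3K27ac peak overlapped the Hes1 site, and the nearest lay 58.2 kb away in the control and 58.5 kb away with RA. In the GW3965 and LG268 lists the nearest was 121 kb away.

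RXR peaks assigned to other genes flank Hes1. Within 150 kb of the gene there were 11 RXR peaks, 4 of them assigned to Hes1. A site assigned to Cpn2, 61.2 kb from that gene's TSS, had a score of 6.83 with LG268 and 11.62 with RA. A second peak assigned to Cpn2 was called with RA, at a score of 6.97. On the other side, peaks assigned to 4632428C04Rik were called with LG268 (score 5.27) and in day 8 replicate 2 (5.82). A pair of day 8 peaks was assigned to Gm1968, at 8.76 and 9.51. The assignment to the nearest gene does not show which of these genes a site acts on.

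Mnx1, the motor neuron homeobox gene, carried the highest-ranked site of the 7. It lies at chr5:29467736-29468192 (457 bp), 10488 to 10561 bp downstream of the TSS, in intergenic sequence annotated as CpG-rich. Its score was 9.98 with LG268, 7.64 with RA and 11.92 in day 8 replicate 2. These are ranks 576 of 2089, 870 of 1970 and 845 of 2044. Replicate 1 of day 8 had no peak there and the nearest there was 2229 kb away. The 3 lists shared 84 sites of this pattern (1.68%), among which the Mnx1 site stood at position 36 by best rank. Peaks annotated as CpG are rare in these lists, at 6.56% with LG268, 5.18% with RA and 4.06% in day 8 replicate 2. An H3K27ac peak lay inside the site in the GW3965 list, 240 bp long with a score of 4.23 and rank 15171 of 17759. GW3965 is a condition without an RXR peak there, and the control, LG268 and RA lists had no H3K27ac peak within 32 kb of the site.

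Neurog1 and Neurog2, the proneural activators, had 1 RXR peak each, with different ligands. The Neurog1 peak was called with RA at a score of 3.78 and rank 1802 of 1970 (chr13:56226593-56226800, 25467 bp downstream of the TSS). The files annotate it as intergenic, and RefSeq places the gene 4930550C17Rik over it. The Neurog2 peak was called with LG268 at a score of 4.81 and rank 1540 of 2089. It lies at chr3:127705720-127705902, 72666 bp downstream of the Neurog2 TSS, inside intron 3 of 13 of the neighbouring gene Alpk1. Both peaks stood in the lower part of their lists, at 91.5% and 73.7% from the top, and neither was found at day 8 or day 16. Sites found with RA alone made up 10.2% of all RXR sites (509), and sites with LG268 alone 14.5% (729). At the Neurog1 locus the other 6 RXR peaks within 150 kb were assigned to H2afy, a histone variant gene, a set of 5 at its promoter and 1 upstream. The promoter scores were 3.54 with GW3965, 11.91 with LG268, 14.36 with RA and 6.33 and 32.83 at day 8. A GW3965 peak in intron 1 of Alpk1, with a score of 4.93, lay 63.4 kb from the Neurog2 site.

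Dcx, the microtubule-binding gene of migrating neurons, was the member found in differentiating cultures and in no ES list. Its site lies in intron 3 of 6, at chrX:143897447-143897630, 35565 to 35598 bp downstream of the TSS. It had a score of 5.57 in day 8 replicate 1 and 11.92 in replicate 2, ranks 891 of 1154 and 845 of 2044. Both replicates held the peak, with centres 33 bp apart, and neither day 16 list did. In ES cells the nearest RXR peak was 440 kb away in the GW3965 list 2621 kb away with LG268, 9222 kb with RA and 9747 kb in the control. Of the 977 sites found in both day 8 replicates, 42.1% had no ES peak, so the Dcx site is one of 411. In 354 of these no day 16 peak was called either, and the Dcx site stood at position 202 of those by best rank. Among the highest of them were sites nearest to Snx11, Chrnb4 and Hoxa4, named after the values were seen. No H3K27ac peak lay within 133 kb of the Dcx site in ES cells.

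Elavl4 and Mapt, both expressed in neurons, each had an RXR peak in an intron with RA. The Elavl4 peak (chr4:110270193-110270365) had a score of 6.74 and rank 1085 of 1970. It lies in intron 1 of 5 of the long transcript, 16555 bp downstream of the TSS of a shorter one. The Mapt peak (chr11:104289488-104289660, intron 3 of 11, 58138 bp downstream of the TSS) had a score of 2.29 and rank 1958 of 1970, 99.4% from the top. It is among the lowest peaks of its list and lies in a MIR3 element. Of the 6 ES sites, with 8 ES peaks, the Mapt peak was the 1 that overlapped H3K27ac of the same treatment. The share of all RXR peaks inside such H3K27ac was 27.8% with RA, 24.5% with LG268 and 25.9% over all 4 ES lists (6088 peaks).

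The Mapt intron 3 site was acetylated in every ES condition, also where no RXR peak was called. The H3K27ac score there was 9.64 in the control, 10.51 with GW3965, 2.75 with LG268 and 12.43 with RA. These are 43.1%, 38.3%, 97.8% and 26.2% from the top of their lists. The peak stood highest in its list with RA and near the bottom of the list with LG268. It shared 144 bp with the RXR peak in the control, 136 bp with GW3965, 59 bp with LG268 and 92 bp with RA. Each value rests on 1 library, and the lists differ in length, so these ranks show no change between conditions.

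**Figure D2:**
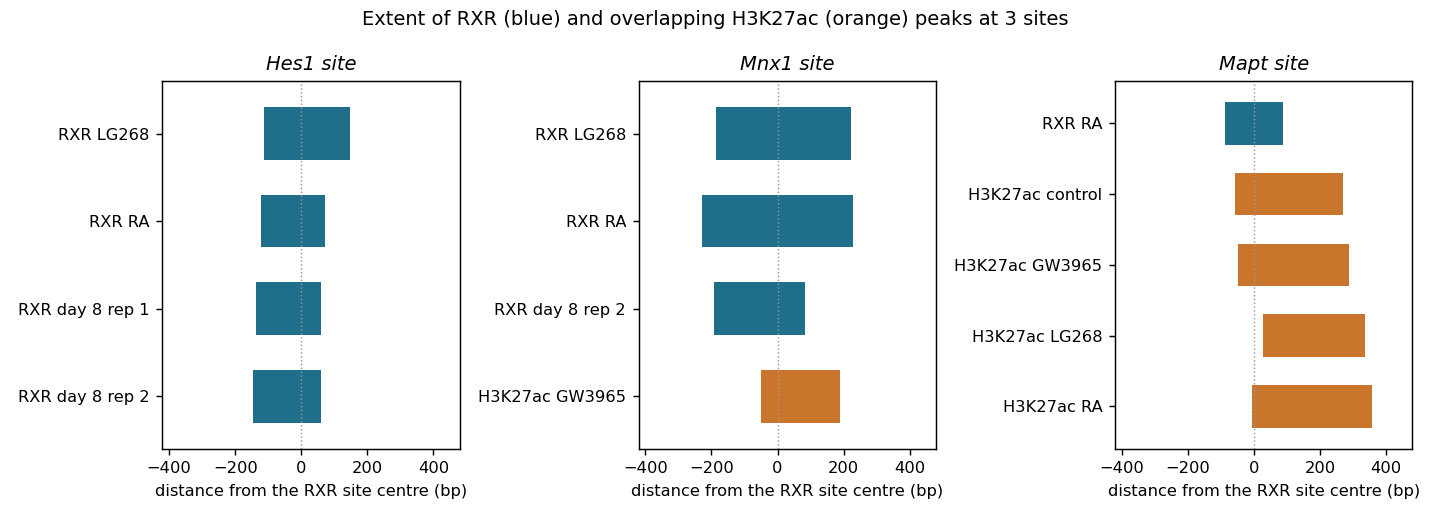
Bars show the extent of each called peak in bp from the centre of the RXR site, for RXR in blue and overlapping H3K27ac in orange, at the Hes1, Mnx1 and Mapt sites. The RXR peaks of different lists lie over each other at Hes1 and Mnx1, and at Mapt the H3K27ac peaks of all 4 lists extend to 1 side of the RXR peak.

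H3K27ac divided the 7 genes. Elavl4 and Mapt had H3K27ac peaks in all 4 lists. Hes1 had them in the control and RA lists, Neurog1, Mnx1 and Dcx in the GW3965 list and no other, and Neurog2 in none. That is 3 of the 7 genes in the control (88.4% of all named genes), 5 with GW3965 (80.7%), 2 with LG268 (65.3%) and 3 with RA (72.8%). Within 1 kb of the TSS, peaks were called at Elavl4 and Mapt in every list and at Hes1 in the control. Over all named genes 73% had such a promoter peak in the control, 66.5% with GW3965, 56.7% with LG268 and 62.7% with RA. The 29 peaks of the 7 genes numbered 12 in the control, 9 with GW3965, 3 with LG268 and 5 with RA, and joined into 14 regions. Of these 14, 3 were called in all 4 lists, against 36.2% of 25396 regions overall.

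Mapt had 2 of the 3 regions found in every list, the intron 3 site and the promoter. The promoter peak (chr11:104230843-104231238) had scores of 9.96, 13.91, 13.92 and 6.29 in control, GW3965, LG268 and RA. It ranked highest with LG268, at 17.5% from the top, and lowest with RA, at 62.5%. A region just downstream of the TSS, in intron 1, was called in the control and with GW3965 (6.92 and 3.90), as was one in intron 9 (7.85 and 4.17). Neither had a peak with LG268 or RA.

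Elavl4 had a region at the TSS of its long transcript in all 4 lists (chr4:110351157-110352012). Its scores were 15.72 in the control, 19.33 with GW3965, 8.09 with LG268 and 13.79 with RA, or 24.2%, 15.7%, 43.9% and 21.7% from the top. These are the highest H3K27ac scores among the 7 genes in the control, GW3965 and RA lists. A second region, 906 to 954 bp from the TSS of a shorter transcript, was called in the control (5.51) and with RA (3.59). A further one, 29.9 to 30.3 kb from the long transcript's TSS in an L1Md_T element, was called in the control (7.82) and with GW3965 (5.33). The RXR peak with RA lay 15.4 kb from the nearest H3K27ac peak of the RA list, the one at the shorter transcript.

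Hes1 had H3K27ac around its TSS in the control and in no ligand list. The control peaks lay at -1613 bp, -866 bp and 1269 bp from the TSS, with scores of 7.64, 4.95 and 4.00, the first 2 upstream and the last in the gene. They ranked 52.9%, 76.5% and 87.4% from the top of 21418 peaks. In a control list cut to the 12472 peaks of the shortest list, the first, at rank 11340, would alone remain. The other ranks were 16378 and 18713. With RA a peak was called 5481 bp downstream, where the control had none (score 4.44, rank 12507 of 14958). No Hes1 peak was called with GW3965 or LG268.

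**Figure D3:**
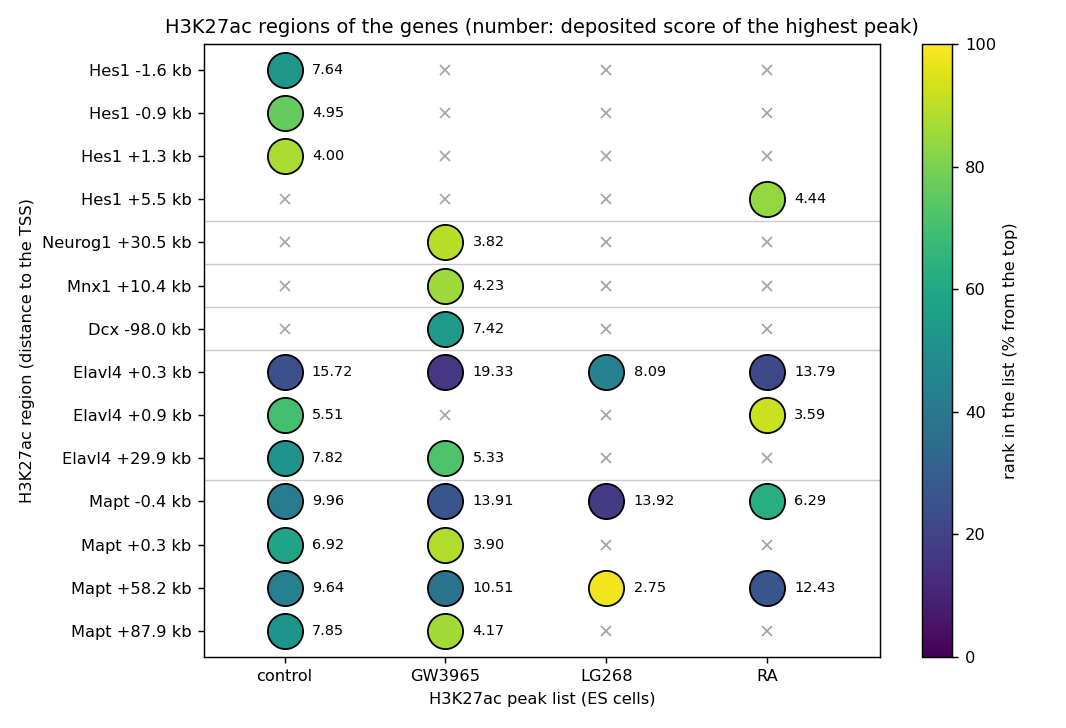
Each row is an H3K27ac region assigned to 1 of the genes, named by its lowest signed distance to the TSS of its nearest transcript in kb, and each column an ES H3K27ac list. Circles show called regions, with the deposited score of the highest peak beside them and the rank as % from the top in colour, and crosses show lists without a peak. Of the 14 regions, 3 have a circle in all 4 columns, 2 at Mapt and 1 at Elavl4.

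Regions of the control that were not called with a ligand outnumbered new ones at these genes with each ligand. Over all regions they did too: 6688 against 3001 with GW3965, 10318 against 1090 with LG268 and 8521 against 1797 with RA. At these genes every control region lay at Hes1, Elavl4 or Mapt. When peaks within 1 kb were joined, both counts with GW3965 were 3. With LG268, 9 of the 12 control regions were not called, against 48.7% of all control regions, and 0 of 3 LG268 regions was new, against 9.11% overall. With RA, 8 of 12 control regions were not called (40.4% overall) and 1 of 5 RA regions was new (12.5% overall), the one downstream of Hes1. With GW3965, 4 of 10 control regions were not called (32% overall) and 3 of 9 were new (17.4% overall), at Neurog1, Mnx1 and Dcx. The 3 comparisons share the control list. The differences from these overall shares were not tested. The Neurog1 and Mnx1 regions with GW3965 carried the annotation CpG and low scores (3.82 and 4.23, 89.1% and 85.4% from the top). The Dcx region with GW3965, at -97960 bp from the TSS, lies in an L1Md_T element with a score of 7.42. The control list is the longest of the 4, and it also holds promoter peaks at 5 of 5 neuronal markers, against 2, 2 and 3 with GW3965, LG268 and RA. Over all named genes the promoter shares were 73% in the control and 66.5%, 56.7% and 62.7% with these ligands. Neural progenitor, glial and mesoderm markers were also called most often in the control. Fibroblast markers were tied between control and GW3965, ES cell markers were highest with GW3965 and endoderm markers with RA. With the 4 lists brought to equal length, the control held 7 peaks of the members. Control regions not called then numbered 4 with GW3965, 4 with LG268 and 4 with RA. The part of cells with these markers in the members' counts was not tested.

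Other genes of the same pathways were read from a list per pathway, for RXR peaks within 100 kb of the TSS. Of 17 further proneural bHLH genes, 5 are named as a nearest gene in any list, and 3 had an RXR peak. Over all named genes 22% had an RXR peak within 100 kb of the TSS in any of the 8 lists. The counts were 2 in the control, 0 with GW3965, 3 with LG268, 2 with RA, 0 and 2 at day 8 and 0 in both day 16 lists. Over all named genes the shares were 5.94%, 5.05%, 10.9% and 10.3% in the same ES lists, 4.64% and 8.84% at day 8 and 1.59% and 1.46% at day 16. The site of Atoh8, a bHLH factor, 13.1 kb from the TSS, was called in the control (16.21), with LG268 (33.29), with RA (21.20) and in day 8 replicate 2 (16.21). Unlike the Hes1 and Mnx1 sites, the Atoh8 site was called in the control, at rank 171 of 1089.

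Of 29 further genes of the Notch and Hes pathway, 25 are named in any list and 13 had an RXR peak within 100 kb (22% of all named genes). The counts were 4, 3, 5 and 6 in control, GW3965, LG268 and RA, 2 and 6 at day 8, and 0 and 0 at day 16. Rbpj, the DNA-binding partner of Notch, had a promoter peak in the control (6.43), with LG268 (5.76), with RA (14.86) and in day 8 replicate 2 (13.59). In contrast to Hes1, the Rbpj peak lay within 1 kb of the TSS, at -397 to -445 bp, and was called in the control. Id3, an inhibitor of bHLH factors, had a promoter peak in both day 8 replicates (11.35 and 13.59). Notch2, a Notch receptor, had an intronic peak in both, 72.8 to 72.9 kb from the TSS (4.82 and 7.98). Notch1 had peaks with LG268 (8.58) and RA (2.99) at different positions. Hes3, a relative of Hes1, had a low promoter peak with RA (2.81, rank 1933 of 1970).

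Of 18 motor neuron and spinal patterning genes, 13 are named and 7 had an RXR peak (22% of all named genes). The counts were 1, 3, 1 and 2 in the ES lists, 2 and 3 at day 8, and 1 and 0 at day 16. Foxp1, a transcription factor of motor neuron columns, had a site 88.2 kb upstream of the TSS in 7 of the 8 RXR lists. Its score was 21.22 in the control, 5.53 with GW3965, 12.51 with LG268 and 26.32 with RA. At day 8 it was 59.78 and 105.48, rank 60 of 1154 and 27 of 2044, and in day 16 replicate 1 it was 2.68. The Mnx1 site was in 3 lists, with a best rank of 576 of 2089. Pax6, a progenitor factor, had a peak in day 8 replicate 1 (7.93), and Irx3 (4.47) and Slit3 (16.54) in replicate 2.

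Of 21 neuronal cytoskeleton genes, all 21 are named and 6 had an RXR peak (22% of all named genes): Dclk1, Dclk2, Dpysl3, Gap43, Map1b and Stmn1. The counts were 1, 2, 1 and 2 in the ES lists, 2 and 1 at day 8, and 0 and 0 at day 16. Dclk2, a relative of Dcx, had a site 10.4 kb from its TSS with LG268 (4.79), RA (10.78) and in day 8 replicate 2 (10.30), the same 3 lists as the Mnx1 site. Gap43, a growth cone gene, had a peak in day 8 replicate 1 (5.57), with the score and rank of the Dcx site in that list. Of 15 neuronal RNA-binding genes, 13 are named and 3 had an RXR peak (22% of all named genes): Msi1, Msi2 and Rbfox2. Their counts were 1, 2, 1 and 1 in the ES lists, 1 and 1 at day 8, and 0 and 0 at day 16. Msi1, a progenitor gene, had a site at -31.1 kb with LG268 (6.75) and RA (7.04). Msi2 had a day 8 site 27.5 kb from its TSS in both replicates (21.99 and 27.32), ranked above the Hes1 and Dcx sites in each, and above the Mnx1 site in replicate 2. Elavl2 and Elavl3, the nearest relatives of Elavl4, had no RXR peak within 100 kb, and their promoters had H3K27ac peaks in the control list and in no ligand list, unlike Elavl4. Both were chosen for mention after their values were seen.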

How the data were processed

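The series mapped RXR and H3K27ac by ChIP-seq with 1 peak list per library. The submitters' processing notes name BWA 0.6.0, MACS2 2.0.10 and HOMER 4.2 and the builds mm9 and mm10 without roles; per the file headers the annotation is mm10. The score of each peak, its distance to the TSS in bp, its nearest gene and its location class were deposited by the authors. The scale of the score between libraries and the read depth are not given in the sources used here, so scores were ranked within a list, ties taking the higher rank. Peaks sharing at least 1 bp were joined into sites. Shares of all genes or sites are given as background, and no p-value was computed. Gene lists took peaks within 100 kb of the TSS, and promoter H3K27ac peaks within 1 kb. Named were the 7 members and, of list genes with an RXR peak within 100 kb, some of the 6 highest by rank per list; other genes were named after their values were seen. The members and lists were chosen with earlier results of these data known. Joining was checked on simulated lists. Alternatives changed the score threshold, list length, distance, overlap, repeats and day replicates. RXR peak sequences were not analysed here, and some genes of the lists are not reported here by name. Work used Python 3.11.15, numpy 2.4.6, pandas 2.3.3 and matplotlib 3.10.9.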

Additional observations from a re-analysis of the deposited data

How the results depend on the processing

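Of 95 values recomputed for 15 counts, 62 stayed within 1.5 times the count given and 33 moved. A window of 100 kb and leaving out repeat peaks moved no count, and neither could. All peaks of the members lie within 100 kb of the TSS, and none was flagged as a repeat. MIR3 and L1 elements were not among the repeats left out, so the Mapt RXR peak in a MIR3 element stayed. Leaving out any 1 day replicate kept members with a day peak at 2 to 3, sites at 7 and sites in 2 or more lists at 2 to 3. The day 16 lists hold no peak of the members, so leaving 1 of them out could change no count. Without the lowest-scoring 25% of each list, members with an ES peak fell from 6 to 3, sites from 7 to 4, sites in 2 or more lists from 3 to 1 and ES sites inside H3K27ac from 1 to 0. With lists shortened to equal length (940 ES peaks, 409 day peaks), the same counts were 1, 1, 1 and 0, and members with a day peak fell from 3 to 0. Within 10 kb of the TSS all 5 were 0. With 50% reciprocal overlap ES sites inside H3K27ac were 0.

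H3K27ac peaks of the members, at equal length (12472 peaks), were 7 in the control, 4 with GW3965 and 3 with RA. Without the lowest 25% they were 5 with GW3965 and 3 with RA, and within 10 kb 3 with GW3965. Control regions not called with GW3965 were 7 with 50% reciprocal overlap. New regions with GW3965 were 1 without the lowest 25%, 1 at equal length and 0 within 10 kb. Control regions not called with LG268 were 4 at equal length and 5 when peaks within 1 kb were joined. Control regions not called with RA were 5 without the lowest 25%, 4 at equal length, 5 within 10 kb and 4 when peaks within 1 kb were joined. New regions with RA were 0 without the lowest 25% and 0 at equal length. The shorter lists and windows hold fewer peaks by construction. No paired analysis was possible because the results come from no test. Read depth is unknown, so a missing peak cannot be told from one below detection.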
